A study of Homo sapiens with 4 samples.

Results

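MHC class I antigen presentation genes were followed across the 4 RNA libraries of a study that overexpressed SPRR1A, a small proline-rich protein of squamous epithelia, in the pancreatic cancer cell line PK-1. The genes were taken by their symbols, and all 9 were found among the 53826 entities listed in each table: the heavy chains HLA-B, HLA-C, HLA-E and HLA-F, the light chain B2M, the peptide transporter subunits TAP1 and TAP2, and the immunoproteasome subunits PSMB8 and PSMB9. PK-1 cells come from a well-differentiated ductal adenocarcinoma. Stable SPRR1A cells were infected with a pMXs retrovirus encoding FLAG-tagged SPRR1A, and stable DsRed cells, their control, with pMXs carrying the red fluorescent protein DsRed. Transient SPRR1A cells were transfected with a pCAG plasmid encoding FLAG-tagged SPRR1A, and transient GFP cells, their control, with pCAG carrying green fluorescent protein, and RNA was taken from them on the second day after transfection. Whether the stable cells are clonal is not given in the sources used here. Each condition had 1 library, so no difference has a replicate check, no SD and no p-value, and each value describes that library.

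MHC class I molecules show peptides from inside the cell to CD8 T cells and to natural killer cells. Proteasomes cut proteins into peptides, the TAP1 and TAP2 dimer pumps the peptides into the endoplasmic reticulum, and there a heavy chain folds with B2M around a peptide and travels to the cell surface. Interferons raise the transcription of many of these genes, through interferon-stimulated response elements bound by IRF and STAT proteins, and the heavy chains and B2M also carry a promoter module read by the transactivator NLRC5.

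RefSeq places 8 of the 9 genes on chromosome 6 of GRCh38.p14, within 3.14 Mb of the major histocompatibility complex, and B2M on chromosome 15 from 44711517 to 44718145. All 9 are protein-coding. HLA-F lies from 29723434 to 29738532, HLA-E from 30489509 to 30494194, HLA-C from 31268749 to 31272092 and HLA-B from 31353875 to 31357179. The remaining 4 stand side by side within 38.02 kb of the class II region. TAP2 (32821831 to 32838739), PSMB8 (32840717 to 32844679) and TAP1 (32845209 to 32853704) are on the minus strand and PSMB9 (32854192 to 32859851) is on the plus strand, with 487 bases between TAP1 and PSMB9.

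Promoter windows from RefSeq, running from 250 bases before to 50 bases after a transcription start, were present for 8 of the 9 genes, with 2 windows each for TAP1 and PSMB8. HLA-E had no entry. The stretches below are shown because they hold the elements that these genes are known to share. They are written 5′ to 3′ on the strand of the gene, and capitals mark a match on either strand to AANNGAAA (a loose interferon-stimulated response element), to its stricter form GAAANNGAA, to GGANTNNCC (an NF-kB site), or to the pair TGACG and ATTGG, the X2 and Y boxes of the heavy chain module, 15 to 25 bases apart. The motifs overlap each other in places and were chosen with the windows in view.
HLA-B, chr6:31357248-31357364, minus strand: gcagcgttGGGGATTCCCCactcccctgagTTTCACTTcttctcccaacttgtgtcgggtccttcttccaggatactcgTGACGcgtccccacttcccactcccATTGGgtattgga
HLA-C, chr6:31272160-31272271, minus strand: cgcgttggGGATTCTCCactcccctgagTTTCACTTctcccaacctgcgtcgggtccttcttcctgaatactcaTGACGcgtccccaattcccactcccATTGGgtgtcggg
B2M, chr15:44711365-44711529, plus strand: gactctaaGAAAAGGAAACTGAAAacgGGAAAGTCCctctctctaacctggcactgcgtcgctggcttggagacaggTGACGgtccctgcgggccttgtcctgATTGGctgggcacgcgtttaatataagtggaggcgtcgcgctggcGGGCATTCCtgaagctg
HLA-F, chr6:29723270-29723295, plus strand: ccccagagTTTCTCTTTCtctcccaa
TAP1, chr6:32853666-32853846, minus strand: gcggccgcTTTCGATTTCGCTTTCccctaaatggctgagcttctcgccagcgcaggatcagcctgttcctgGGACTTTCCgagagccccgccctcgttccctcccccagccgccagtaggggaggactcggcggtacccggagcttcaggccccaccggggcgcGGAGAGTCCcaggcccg
TAP2, chr6:32838780-32838809, minus strand: ggctggggAAGCGAAAGCGAAAgctgcccg
PSMB8, chr6:32844030-32844059, minus strand: tctgtggcTTTCGCTTTCACTTcctcctcc

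The X2 and Y pair was found in the windows of HLA-B, HLA-C and B2M, with 20, 20 and 21 bases between the boxes, and in 0.447% of all 35116 promoter windows. The printed stretches were cut around their matches, so each holds a match by construction. AANNGAAA was found in a window of each gene printed here and in 22.8% of all windows. It was not found in the PSMB9 window, the upstream PSMB8 window or the downstream TAP1 window. Its stricter form was found in the windows of B2M, HLA-F, TAP1, TAP2 and PSMB8, not in those of HLA-B and HLA-C, and in 8.11% of all windows. GGANTNNCC was found in the windows of HLA-B, HLA-C, B2M and TAP1 and in 14.2% of all windows. The PSMB9 window and the upstream window of PSMB8 held none of these letters. A match is a description of the reference sequence, and binding was not measured.

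The levels of the 9 genes spanned a wide range and kept nearly the same order in the 4 libraries. Values are given as log2 TPM, the scale of the deposited tables, in which TPM divides reads by transcript length and a TPM of 1 or less is listed at 0. B2M was the highest in every library, at 11.01 and 10.98 in the stable pair and 11.23 and 11.39 in the transient pair. In each pair the SPRR1A library is given first and its control second. HLA-C followed at 8.49, 8.67, 8.79 and 8.91, and HLA-B, the other classical heavy chain here, at 8.16, 8.62, 8.70 and 8.78 in the same order. Both were lowest in stable SPRR1A and highest in transient GFP cells.

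HLA-E, a nonclassical heavy chain that binds leader peptides of other heavy chains, stood at 6.54 and 6.57 in the stable pair and 6.90 and 7.003 in the transient pair. HLA-F, a nonclassical heavy chain found largely inside the cell, stood at 4.48, 4.68, 5.08 and 5.25. For HLA-C, HLA-E, HLA-F and B2M both transient libraries were above both stable libraries, and for HLA-B as well, although transient SPRR1A exceeded stable DsRed there by little. TAP1 had the same order, with 4.94, 5.05, 5.34 and 5.53 in the libraries as listed.

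TAP2, the partner of TAP1, ran the other way, at 4.98 and 4.88 in the stable pair and 4.54 and 4.74 in the transient pair. PSMB8, the immunoproteasome subunit that takes the place of PSMB5, stood at 5.86, 6.06, 5.64 and 5.74, again with both transient libraries below both stable ones. PSMB9, which takes the place of PSMB6, stood at 6.15, 6.24, 6.09 and 6.29, so that the transient libraries lay on either side of the stable ones. The order of TAP1, TAP2 and HLA-F, the 3 lowest genes, was not the same in each library, while ranks 1 to 6 were held by B2M, HLA-C, HLA-B, HLA-E, PSMB9 and PSMB8 in all 4.

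**Figure D1:**
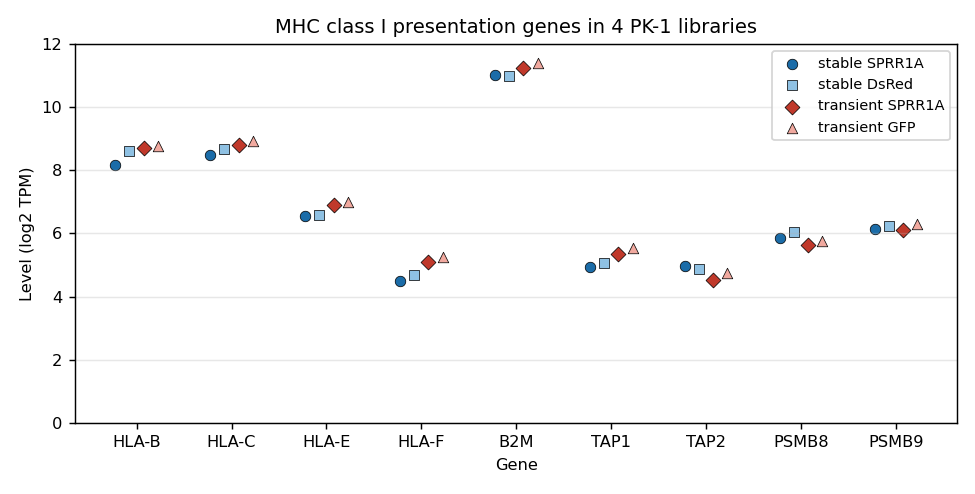
Level of each of the 9 genes (log2 TPM, vertical axis) in the 4 libraries, with 1 point per library and no error bars because each condition had 1 library. B2M lies near 11 in each library, and the transient points lie above the stable points for HLA-B, HLA-C, HLA-E, HLA-F, B2M and TAP1 and below them for TAP2 and PSMB8.

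Some features of the whole tables bear on these comparisons. SPRR1A stood at 10.93 and 0.75 log2 TPM in the stable pair and at 16.60 and 3.56 in the transient pair, high where the labels say so. Between the controls it was higher in transient GFP than in stable DsRed cells. In the transient SPRR1A library it took 9.92% of the TPM. The 9 genes together took 0.302%, 0.316%, 0.361% and 0.398% of the TPM in the same order. The median difference of well expressed entities, those whose TPM was 5 or more on both sides of a comparison, was 0.06 for stable SPRR1A minus stable DsRed, -0.18 for transient SPRR1A minus transient GFP, 0.12 for transient GFP minus stable DsRed and -0.11 for transient SPRR1A minus stable SPRR1A. Differences are therefore also given relative to that median. All 5 epithelial markers were above the floor in each library, and their summed TPM was 18687 and 19417 in the stable pair and lower, at 13540 and 15066, in the transient pair. EPCAM, KRT8, KRT18 and KRT19 were lower in both transient libraries than in both stable ones, and CDH1 was higher. All 4 endothelial markers were listed at 0. Of the leukocyte markers, PTPRC, CD3E, MS4A1 and CD14 were listed at 0 in the 4 libraries and CD68, a lysosomal protein, had a TPM of 17.1 and 15.9 in the stable and 30.0 and 29.7 in the transient libraries. Of the fibroblast markers, COL1A2, COL3A1, DCN and LUM were listed at 0 and COL1A1 had a TPM of 3.88 to 6.14.

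The first comparison asked whether SPRR1A goes along with a difference in the class I genes in the stable model. None of the 9 genes was past the 2-fold threshold of the study, against 0.947% of 13310 entities, and 0 were past 1.5-fold, against 3.97%. These shares, and those given below for the same thresholds, include entities near the floor, while all 9 genes were well expressed. The stable SPRR1A library was lower than stable DsRed for 7 of the 9 genes, and 35.6% of 9835 well expressed entities were lower. The median log2 difference of the 9 genes was -0.11, beside 0.07 over all 13310 entities, and it was -0.17 relative to the median of well expressed entities. HLA-B had the largest gap, at 8.16 against 8.62, a difference of -0.46. Only 0.417% of well expressed entities had a lower difference than HLA-B.

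Other class I genes in the stable model differed by less. The difference was -0.20 for PSMB8, -0.20 for HLA-F and -0.18 for HLA-C, and 4.85% and 4.91% of well expressed entities had a lower difference than PSMB8 and HLA-F. TAP1 differed by -0.11 and PSMB9 by -0.09. HLA-E differed by -0.02, B2M by 0.02 and TAP2 by 0.10. Relative to the median of well expressed entities, 8 of the 9 genes were lower in stable SPRR1A cells, and TAP2, at 0.04, was the exception.

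The second comparison asked the same in the transient model. All 9 genes were lower in transient SPRR1A than in transient GFP cells, by 0.07 to 0.20, as were 94.1% of 10154 well expressed entities. Their median difference was -0.16, against -0.19 over all 13717 entities. None was past 2-fold, against 0.889% of entities, and none past 1.5-fold, against 3.93%. The lower direction depends on the scaling: relative to the median of well expressed entities the differences ran from -0.02 for TAP2 to 0.11 for HLA-B, with 6 genes higher, 3 lower and a median of 0.0265. HLA-B, the gene with the largest difference in the stable model, had a deposited difference of -0.07 here, so that the SPRR1A difference was 0.39 higher in the transient than in the stable model. Relative to the median the gap between the models was 0.63, from -0.52 to 0.11, and it was not tested on either scale.

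The third comparison set the transient against the stable libraries, first for the controls. The median difference of the 9 genes between transient GFP and stable DsRed cells was 0.24, beside 0.18 over all 13761 entities, and was 0.12 relative to the median of well expressed entities. As deposited, 7 of the 9 genes were higher, as were 63.8% of 9810 well expressed entities. None was past 2-fold, against 7.52% of entities, nor past 1.5-fold, against 22.9%. HLA-F was nearest to these thresholds, with a difference of 0.56, or 0.44 relative to the median. Among well expressed entities the 5th and 95th percentiles of the deposited difference were -0.42 and 0.87. TAP1 differed by 0.48, HLA-E by 0.44 and B2M by 0.41. HLA-C and HLA-B differed by 0.24 and 0.16, and PSMB9 by 0.05, which turned to -0.08 relative to the median. TAP2 differed by -0.14, or -0.26 relative to the median, and PSMB8 by -0.31, or -0.44.

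For the SPRR1A libraries, transient minus stable, the median difference of the 9 genes was 0.30, beside -0.08 over all 13549 entities. The transient library was higher for 6 of the 9 genes, while 35% of 9843 well expressed entities were higher. None was past 2-fold, against 3.59%, and HLA-F alone was past 1.5-fold, against 13.2%. HLA-F differed by 0.60, HLA-B by 0.54, TAP1 by 0.40, HLA-E by 0.35, HLA-C by 0.30 and B2M by 0.23. In this comparison 96.2% of well expressed entities had a lower difference than HLA-F, 95.6% a lower one than HLA-B and 92.1% a lower one than TAP1. PSMB9 differed by -0.06, or 0.06 relative to the median, PSMB8 by -0.21 and TAP2 by -0.44. Of well expressed entities, 10.5% had a lower difference than TAP2.

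The gap of HLA-B between the SPRR1A libraries rests on the stable SPRR1A library, which is also the low library in the stable model, and between the control libraries HLA-B stood close to the median, at 0.03 relative to it. HLA-F, HLA-E, TAP1 and B2M were above the median of well expressed entities by 0.28 to 0.44 between the control libraries and by 0.34 to 0.71 between the SPRR1A libraries. TAP2 was below it in both, at -0.26 and -0.33. The summed epithelial markers and CD68 also differed between the transient and stable libraries, and their part in these differences was not tested. The vector, the fluorescent protein, the transfection, the culture history and the SPRR1A level all differ between the models, and their parts cannot be told apart.

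**Figure D2:**
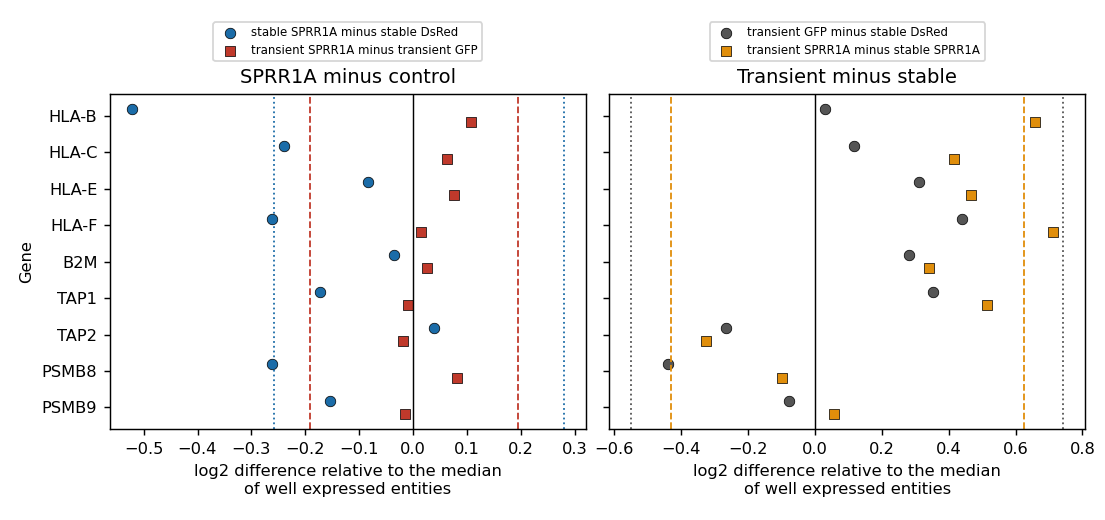
log2 difference of each gene relative to the median of well expressed entities (horizontal axis), for SPRR1A minus control in the left panel and transient minus stable in the right panel, with 1 value per comparison. Dotted lines (for circles) and dashed lines (for squares) mark the 5th and 95th percentiles of well expressed entities. HLA-B at -0.52 lies far left of the stable range, and PSMB8 and HLA-F, both at -0.26, lie just left of its lower dotted line. Between the SPRR1A libraries HLA-F (0.71) and HLA-B (0.66) lie right of the upper dashed line.

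Ratios of 2 genes within a library do not depend on how the library was scaled. TPM of TAP1 was 0.973 and 1.13 times that of TAP2 in the stable pair, and 1.74 and 1.73 times in the transient pair. On the log2 scale the ratio was 0.73 higher in the transient libraries on average, while the libraries differed by 0.21 within the stable and by 0.01 within the transient model. This pair, whose products form a dimer, was picked after the values were seen. The ratio of TAP1 to PSMB9, its head-to-head neighbour, was 0.433 and 0.438 in the stable pair and 0.594 and 0.591 in the transient pair, and was picked in the same way.

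The immunoproteasome subunits were set beside the constitutive subunits that they replace. PSMB8 had 0.226 and 0.240 times the TPM of PSMB5 in the stable pair, and 0.210 and 0.200 times in the transient pair. PSMB9 had 0.123 to 0.135 times the TPM of PSMB6. PSMB10, the last inducible subunit, had 0.114 to 0.123 times the TPM of PSMB7. All 3 were thus minor beside their constitutive counterparts in each library, and the transient and stable means differed by -0.19, 0.08 and -0.02 on the log2 scale.

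The heavy chains were also set against B2M. HLA-B had 0.139 times the TPM of B2M in stable SPRR1A cells, 0.195 times in their control, and 0.173 and 0.164 times in the transient pair. HLA-C had 0.175 to 0.202 times and HLA-E 0.0453 to 0.0495 times. HLA-F had 0.0108 and 0.0127 times in the stable pair and 0.0140 and 0.0141 times in the transient pair.

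**Figure D3:**
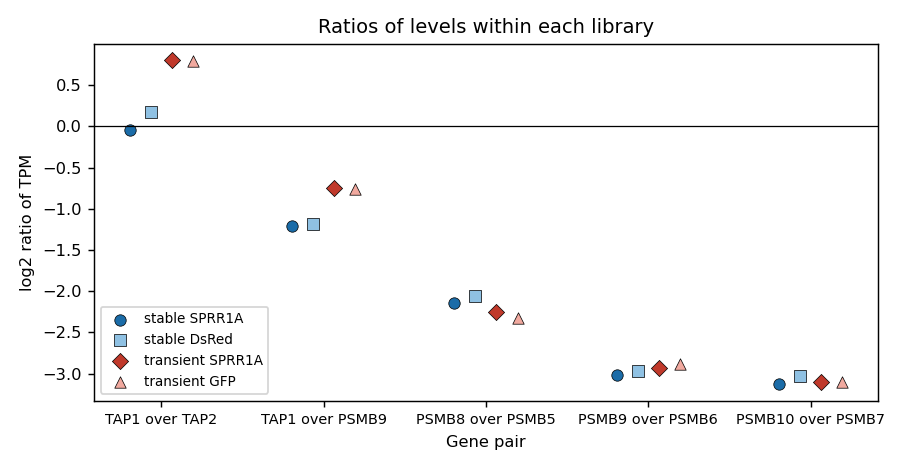
log2 ratio of the TPM of 2 genes within each library (vertical axis) for TAP1 over TAP2, TAP1 over PSMB9 and the immunoproteasome subunits over the constitutive subunits they replace, with 1 point per library. The TAP1 over TAP2 ratio was -0.04 and 0.17 in the stable and 0.80 and 0.79 in the transient libraries, while the PSMB10 over PSMB7 ratio stayed between -3.13 and -3.03.

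The neighbours of TAP1 did not share its difference. The annotated genes from TAP2 to PSMB9 numbered 5, which are the 4 class I genes and PSMB8-AS1, a long noncoding RNA that overlaps both PSMB8 and TAP1. PSMB8-AS1 stood at 1.83 and 2.03 in the stable pair and 1.89 and 2.01 in the transient pair. Its mean transient minus stable difference was 0.02, against 0.44 for TAP1, -0.26 for PSMB8 and -0.29 for TAP2. The nearest genes outside that were above the floor were HLA-DOB, a class II chain, at 1.65 to 2.09 with a mean difference of -0.27, and LOC100294145, a long noncoding RNA, with a mean difference of -0.01. Libraries were stranded, but whether the counting used the strand is not given in the sources used here, so reads of PSMB8-AS1 and of the genes opposite it may not be separated.

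**Figure D4:**
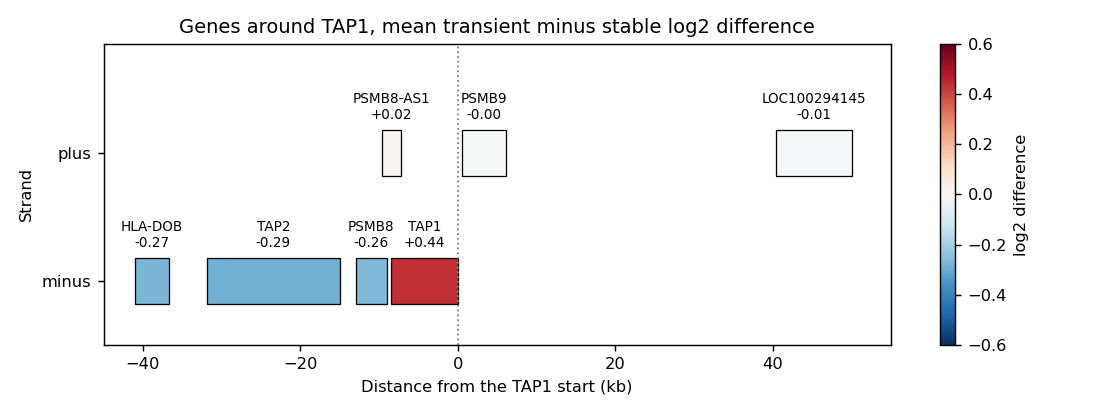
Genes around TAP1 drawn to scale by distance from the TAP1 start in kb (horizontal axis) and by strand (vertical axis), coloured and labelled by the mean of the transient minus stable log2 differences of the control and of the SPRR1A libraries. TAP1 (0.44) is the only one of the 7 genes drawn with a mean difference above 0.1, between PSMB8 (-0.26) and PSMB9 (0.00).

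Sequence shared between class I genes may limit these values, and its effect on them was not measured. Among 50-base windows of the MANE Select transcripts in GENCODE 44, 2.56% of HLA-B, 6.76% of HLA-C, 6.16% of HLA-E and 1.89% of HLA-F windows were found unaltered in transcripts of another gene, mostly other class I genes and pseudogenes. B2M, PSMB8 and PSMB9 shared 0 windows, and TAP1 shared 1.18%. TAP2 shared 35.3% of its windows with a GENCODE gene without a symbol, which covers TAP2 and part of HLA-DOB. Whether the reference used by the authors held that gene is not given in the sources used here. PK-1 alleles are not known from these files, and reads of an allele far from the reference may have been lost in alignment to hg38.

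Genes that act with the 9 were read from lists of the pathway. In the lists below 2-fold calls are counted, and in the higher direction the background was 6.86% of entities between the control libraries and 2.61% between the SPRR1A libraries. The median difference over all entities was 0.18 and -0.08 in these comparisons. Of 7 genes for peptide loading and trimming 0 were past 2-fold in any of the 4 comparisons. Their highest levels were those of the chaperones CALR (9.40 to 9.55), PDIA3 (9.13 to 9.32) and CANX (8.61 to 9.04). TAPBP, which bridges TAP to the heavy chain, was lower in the transient libraries like TAP2, by -0.15 between the control libraries and -0.28 between the SPRR1A libraries. ERAP1, which trims peptides, differed by 0.62 and 0.17. The median of this list was 0.17 between the control libraries and -0.02 between the SPRR1A libraries.

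Of the 5 other immunoproteasome and activator genes and the 14 constitutive 20S proteasome genes, 0 were past 2-fold in any comparison. PSME2 and PSME1, the subunits of the interferon-inducible activator, stood at 8.86 to 9.04 and 8.01 to 8.22, and POMP, the assembly factor, at 7.18 to 7.41. PSMA7, PSMB3 and PSMB7 had the highest levels of the constitutive list, with 10.32 to 10.52, 9.65 to 9.79 and 9.21 to 9.34. Medians between the control libraries were -0.14 for the activator list and 0.00 for the constitutive list, both below the median of 0.18 over all entities. For transient minus stable SPRR1A both were -0.09, close to the median of -0.08 over all entities.

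Regulators of class I transcription were all above the floor in at least 1 library, and 1 of 15 was past 2-fold in any comparison. IRF9, the DNA-binding subunit of the type I interferon-activated factor, stood at 4.06 and 3.92 in the stable pair and 4.50 and 5.03 in the transient pair, and its difference was 1.10 between the control libraries and 0.44 between the SPRR1A libraries. NLRC5, the class I transactivator, stood at 2.29, 2.58, 3.21 and 3.34 in the same order. Its differences of 0.77 and 0.92 did not reach 2-fold, and in both transient libraries it was above both stable ones. IRF1 differed by 0.47 and 0.44 and STAT2 by 0.64 and 0.43. RELA (6.32 to 6.49) had the highest mean level, and NFKB1 and JAK1 followed it. The list had a median of 0.40 between the control libraries and -0.01 between the SPRR1A libraries.

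Among 14 interferons and receptors 6 were listed at 0 in all 4 libraries, among them IFNB1, IFNG and IFNA1, and 0 were past 2-fold. IFNL1 was listed at 0.29 in transient GFP cells and at 0 in the others. The interferon IFNE was above the floor in each library, at 0.96 and 1.20 in the stable pair and 0.94 and 1.58 in the transient pair. The receptors IFNGR2 (5.19 to 5.51), IL10RB (4.96 to 5.12) and IFNGR1 (up to 4.92) had the highest levels, and IFNGR1 differed by 0.92 between the control libraries and 0.35 between the SPRR1A libraries.

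Of the class II list, 8 of 12 genes were listed at 0 in every library, including the transactivator CIITA and HLA-DRA. CD74, the class II invariant chain, was listed at 0.53 and 1.89 in the stable pair and at 0 in the transient pair, and passed 2-fold in the lower direction both in the stable model (-1.36) and between the control libraries (-1.89), comparisons that share the stable DsRed library. In that direction 0.421% and 0.661% of entities were past 2-fold. CD74 was near the floor, and its difference of -1.89 was taken against a library in which it was listed at 0. HLA-DQB1, HLA-DMA and HLA-DOB had the highest mean levels, all below 3 log2 TPM. Of the other class I heavy chains and pseudogenes, HLA-H, HLA-J and HLA-K were listed at 0 in the 4 libraries, HLA-G stood at 2.40 to 2.63 and HLA-L at 0.30 to 1.13.

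Class I-like genes and ligands of the natural killer receptor NKG2D had the most 2-fold calls. Of 13 genes 3 were listed at 0 throughout, and 3 were past 2-fold higher between the control libraries: RAET1G (1.17), RAET1L (1.26) and HFE (1.15), a regulator of iron uptake. RAET1G, an NKG2D ligand, stood at 2.75 and 2.68 in the stable pair and 3.77 and 3.85 in the transient pair and was also past 2-fold between the SPRR1A libraries (1.01). RAET1L stood at 0.50, 0.10, 1.31 and 1.36, near the floor. ULBP2, MICA and FCGRT had the highest mean levels of the list. FCGRT, the neonatal Fc receptor that also pairs with B2M, was lower in the transient libraries, with differences of -0.68 and -0.78. The median of the list was 0.63 between the control libraries and 0.38 between the SPRR1A libraries, beside 0.18 and -0.08 over all entities.

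**Figure D5:**
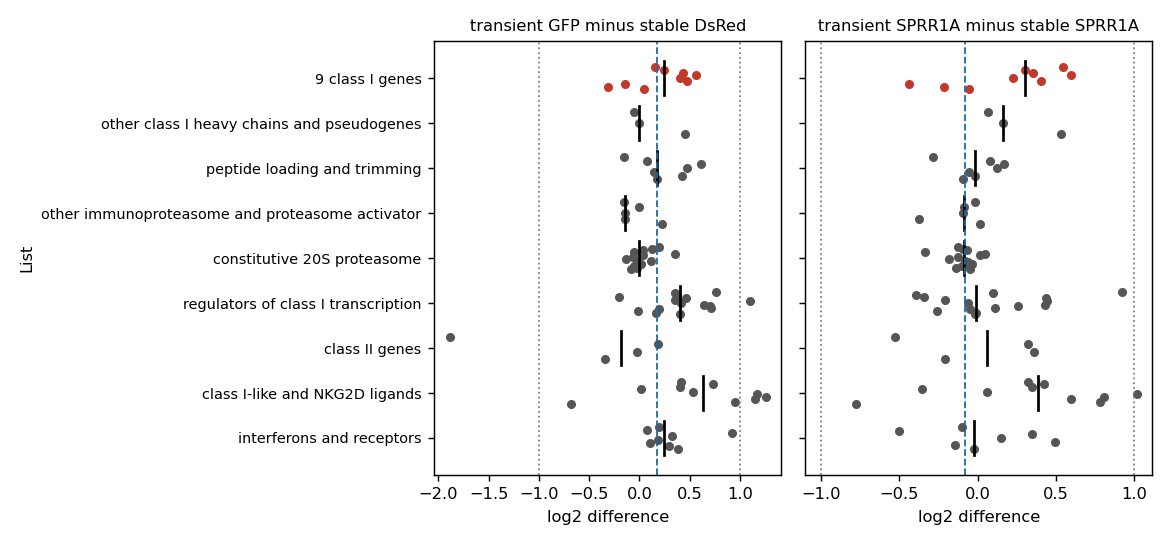
log2 difference of each listed gene above the floor in either library (horizontal axis) by list (vertical axis), between the control libraries in the left panel and between the SPRR1A libraries in the right panel. Black bars mark list medians, the dashed line the median of all entities above the floor in either library and dotted lines the 2-fold threshold. The 9 class I genes have medians of 0.24 and 0.30 and none lies past 2-fold, and the class I-like and NKG2D ligand list has the highest median of the lists drawn in both panels.

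Finally, entities with a pattern most like the mean of the 9 genes were sought. The distance was the root mean square difference over the 4 libraries, after centring each gene on its own mean, among 9649 other entities whose TPM was 5 or more in all 4. The 10 nearest were CXorf56, CSNK1E, FXYD3, LOC400927-CSNK1E, FBRS, SH3BP1, PLA2G15, ABCC1, SH2D3A and IGBP1, at distances of 0.0128 to 0.0194 in log2 units. CSNK1E and LOC400927-CSNK1E overlap by name and may share reads. The 9 genes themselves lay farther from their own mean, from 0.0410 for HLA-C to 0.258 for TAP2. The 10 entities were picked as the nearest of 9649 and the 9 genes were not picked by distance. Their larger distances therefore do not measure how alike the 9 genes are.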

How the data were processed

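RNA of 4 PK-1 libraries, 1 per condition, was sequenced from stranded mRNA libraries in paired-end mode. Reads were mapped by the authors against hg38 transcripts in Strand NGS, default settings, and expressed as TPM. The deposited values are the log2 of the TPM with a floor at 0. Software version, annotation release and the treatment of multiply mapped reads are not given in the sources used here, and depth in reads is unknown. The 9 genes and all lists were chosen with earlier results of these data known.

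Differences of the deposited log2 values were computed for 4 comparisons over all 53826 entities. An entity was called past a 2-fold difference, with no filter, and counts were set against all entities above the floor in either library. No test was made with 1 library per condition. An additive fit of SPRR1A and model to the 4 libraries would leave 1 residual degree of freedom. That degree of freedom corresponds to the SPRR1A difference in the transient model minus the SPRR1A difference in the stable model. Named genes are the 9 genes, listed genes past 2-fold, up to 3 genes of a list with the highest mean level, genes from TAP2 to PSMB9 with 1 neighbour on each side, and the 10 entities nearest in pattern; others were picked after their values were seen, and some listed genes are not reported here. Positions and promoters came from RefSeq (GRCh38.p14), matched by Entrez Gene identifier, and transcripts from GENCODE 44. Alternatives were log2(TPM + 1), log2(TPM + 0.1), centring on the median of entities whose TPM was 5 or more on both sides, SPRR1A left out of the TPM total, filters at a TPM of 1 and 5, and a 1.5-fold threshold. The calculation was tested on simulated data. Python 3.11.15, numpy 2.4.6, pandas 2.3.3 and matplotlib 3.10.9 were used.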

Additional observations from a re-analysis of the deposited data

Results flagged for a closer look

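A few of the 9 genes had differences of opposite sign in the same contrast, each from 1 library per condition, and these differences were not tested. B2M gave 0.0246 for stable SPRR1A minus stable DsRed and -0.16 for transient SPRR1A minus transient GFP. Relative to the median of well expressed entities these were -0.0351 and 0.0265, so both signs turned. TAP2 gave 0.10 and -0.20, which were 0.04 and -0.02 relative to the median. PSMB9 gave 0.0480 for transient GFP minus stable DsRed and -0.0558 for transient SPRR1A minus stable SPRR1A, and both signs turned after centring.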

How the results depend on the processing

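No paired analysis was possible because only 1 library was made per condition. The median of the 9 genes and every gene's difference moved by less than 0.1 under log2(TPM + 1), log2(TPM + 0.1) and the filters on TPM, which the 9 genes all passed. After centring, the median difference was -0.17 for stable SPRR1A minus stable DsRed, 0.0265 for transient SPRR1A minus transient GFP, 0.12 for transient GFP minus stable DsRed and 0.42 for transient SPRR1A minus stable SPRR1A. When SPRR1A was left out of the total it was -0.00528 for transient SPRR1A minus transient GFP and 0.45 for transient SPRR1A minus stable SPRR1A. Centring turned the sign of 9 of 36 single differences and leaving out SPRR1A that of 5 of 36, all of them under 0.2 in size as deposited. With a 1.5-fold threshold the count between the SPRR1A libraries was 1 in place of 0. Depth in reads is unknown, so counting error could not be set beside any difference.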
